A study of Mus musculus with 12 samples.

Results

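The 10 genes described here encode the ectonucleoside triphosphate diphosphohydrolases of the mouse and ecto-5'-nucleotidase. They are Entpd1, Entpd2, Entpd3, Entpd4, Entpd4b, Entpd5, Entpd6, Entpd7 and Entpd8, together with Nt5e. They were chosen by name, as the rows of the count table whose Ensembl identifier carries one of these symbols. Earlier results of these data were known at that point, and the study had named Entpd4b on the same samples. They are 10 of 53715 genes in the table, and all 10 passed the filter on low counts that left 16558 genes for testing.

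The mucosa of ileum and colon was sequenced from male C57BL/6J mice aged 8 weeks, in 12 libraries with 3 mice in each of 4 groups. Slc39a8-IEC KO mice carried the genotype Slc39a8-fl/fl:Villin-Cre, in which the Villin promoter drives Cre in the intestinal epithelium and not in the other cells of the mucosa. Control mice were labelled Slc39a8-fl/fl, without Cre, whereas the study's methods also count wild-type mice and mice with Villin-Cre alone among its controls. The floxed allele was thus shared by all groups as labelled, and the comparisons asked which transcripts differed between genotypes and between tissues.

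Nucleotides that leave a cell act as signals on purinergic receptors until enzymes on the cell surface remove their phosphates. Entpd1, Entpd2, Entpd3 and Entpd8 sit in the plasma membrane with the active site outside and convert ATP and ADP towards AMP, and Nt5e, known as CD73, converts AMP to adenosine. Entpd4, Entpd5, Entpd6 and Entpd7 act mainly inside the cell, in the endoplasmic reticulum, the Golgi apparatus and vesicles. For Entpd4, Entpd5 and Entpd6, cleavage of UDP and GDP goes with the glycosylation of proteins.

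The Entpd proteins share short stretches of sequence known as apyrase conserved regions. The first of these lies around an aspartate, an alanine or cysteine, a glycine and a serine, and its codons are in capitals below, within 48 coding bases of each gene, 5′ to 3′ on the coding strand of GRCm38 (mm10, GENCODE M21). The windows are shown because they separate the members by sequence, and because the windows of Entpd4 and Entpd4b cannot be told apart.
Entpd1, chr19:40720457-40720504, plus strand: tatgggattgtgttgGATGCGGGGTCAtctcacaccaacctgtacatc
Entpd2, chr2:25397396-25397443, plus strand: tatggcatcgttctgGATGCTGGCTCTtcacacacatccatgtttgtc
Entpd3, chr9:120554069-120554116, plus strand: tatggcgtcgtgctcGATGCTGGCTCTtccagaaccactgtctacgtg
Entpd8, chr2:25082033-25082080, plus strand: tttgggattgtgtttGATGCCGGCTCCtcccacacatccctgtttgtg
Entpd4, chr14:69350761-69350808, plus strand: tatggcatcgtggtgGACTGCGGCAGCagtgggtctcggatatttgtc
Entpd4b, chr14:69569011-69569058, plus strand: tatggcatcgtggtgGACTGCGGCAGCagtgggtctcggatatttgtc
Entpd7, chr19:43704257-43704304, plus strand: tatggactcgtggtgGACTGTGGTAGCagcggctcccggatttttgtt
Entpd5, chr12:84396704-84396751, minus strand: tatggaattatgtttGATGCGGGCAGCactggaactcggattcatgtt
Entpd6, chr2:150753261-150753308, plus strand: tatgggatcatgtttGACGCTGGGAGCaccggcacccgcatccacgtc

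Position by position, all 48 bases of the Entpd4b window were those of Entpd4. Entpd7 shared 39 of the 48 bases with Entpd4, Entpd5 shared 32 and Entpd6 shared 30, and the surface enzymes shared 27 for Entpd2, 24 for Entpd8, 23 for Entpd3 and 22 for Entpd1. The coding sequence of Nt5e, an enzyme of another family, held no such motif. Over whole transcripts, each of the 8281 windows of 75 bases in Entpd4 occurred in Entpd4b, and no window of this length was shared between any other members.

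Expected counts, which are estimates of reads per gene, totalled between 16749138 and 27903083 per library. They are given below as CPM, counts scaled to a common library size with TMM factors, and SE stands for the standard error of a log2 fold change. Slc39a8, the deleted gene, was at 8.39, 5.22 and 6.59 CPM in control ileum and at 4.35, 2.62 and 2.80 CPM in KO ileum. In colon it was at 20.8, 20.5 and 20.1 CPM in control and 7.35, 11.5 and 7.93 CPM in KO libraries, so that the genotypes did not overlap in either tissue. The 4 ileal enterocyte markers summed to between 17322 and 22933 CPM in ileum and between 1245 and 2272 CPM in colon. The 4 colonocyte markers summed to between 20181 and 36268 CPM in colon and to between 162 and 454 CPM in 5 ileal libraries, but to 3510 CPM in KO ileum replicate 2. The 5 smooth muscle markers summed to 25.2 CPM in control ileum replicate 3 and 14.7 CPM in KO ileum replicate 1, against 1460 to 2958 CPM in the other 10 libraries. Results whose call or direction turned on 1 of these 3 libraries are given with and without it. In bulk mucosa, fewer cells of a type and less RNA per cell cannot be told apart.

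Per length, Entpd5 and Entpd8 were the most abundant members in every group, and the order of the others differed between ileum and colon. In control ileum, the level per kilobase of exon was 44.8 ± 14.7 CPM per kb for Entpd8 and 29.6 ± 7.97 CPM per kb for Entpd5 (SD, n = 3), and the ranges of the pair overlapped. Entpd2 followed at 12.8 ± 1.92 CPM per kb, and Nt5e at 8.76 ± 6.40 CPM per kb. Entpd7, Entpd6 and the sum of Entpd4 and Entpd4b lay between 2.40 and 4.07 CPM per kb, each with a range that overlapped its neighbour in the order. Entpd1 at 1.01 ± 0.532 CPM per kb and Entpd3 at 0.162 ± 0.0822 CPM per kb were the lowest, with no overlap between them.

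In control colon, Entpd5 led at 95.4 ± 7.29 CPM per kb and Entpd8 followed at 47.7 ± 8.41 CPM per kb, without overlap. Entpd2 was at 9.61 ± 1.56, Entpd6 at 6.65 ± 0.428 and the sum of Entpd4 and Entpd4b at 2.88 ± 0.605 CPM per kb, again each without overlap with the next. Nt5e, Entpd7 and Entpd1 lay together between 0.923 and 1.14 CPM per kb, and Entpd3 was at 0.221 ± 0.132 CPM per kb. With the longest transcript in place of all exons, the order changed in several places. Nt5e moved above Entpd2 in ileum and Entpd6 above Entpd2 in colon, each in both genotypes. Entpd6 moved above Entpd7 in ileum of both genotypes, and in KO ileum the sum of Entpd4 and Entpd4b moved above both. In KO colon Nt5e moved above Entpd1.

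**Figure D1:**
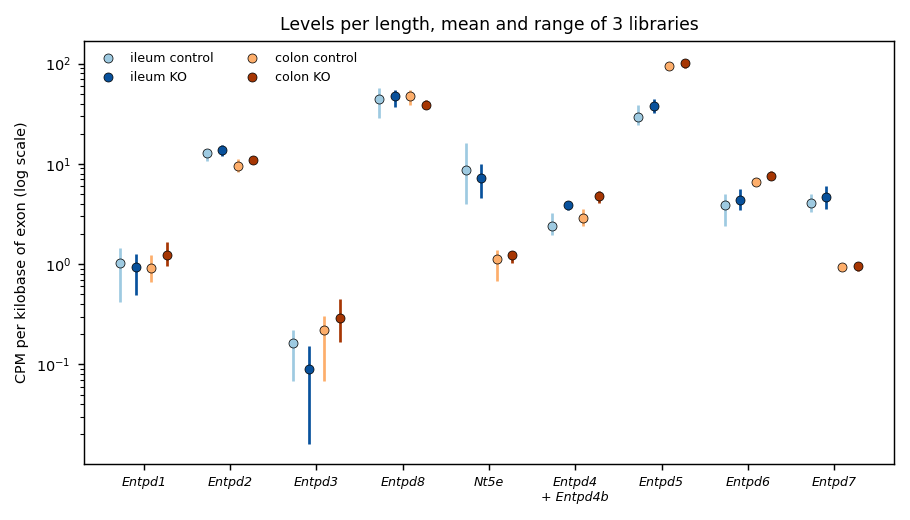
Level of each member in CPM per kilobase of exon, on a log axis, by group; points are means and vertical lines the range of 3 libraries, and the duplicated pair is shown as its sum. Entpd5 and Entpd8 lie above all other members in each group, and Nt5e and Entpd7 drop to about 1 CPM per kb in colon.

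Between colon and ileum, 4 members differed in both genotypes. Entpd5 and Entpd6, enzymes of the endoplasmic reticulum and Golgi, were higher in colon, whereas Entpd7 and Nt5e were lower. In control mice, 2 of the 10 members were higher in colon, beside 16.2% of all genes tested, and 3 were lower, beside 19.6% of all genes (edgeR, adjusted p under 0.1). In KO mice, 2 members were higher, beside 17.1% of all genes, and 2 were lower, beside 20%. The median log2 fold change of the members was 0.13 in control and 0.30 in KO mice, and that of all genes was 0.02 and 0.01. The shares of genes called are large in both directions, and 10 members are too few to set the family apart from them.

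Nt5e had the largest difference between tissues among the members. Its level was 138, 34.2 and 54.0 CPM in control ileum and 86.2, 60.2 and 39.1 CPM in KO ileum. The colonic values were 5.84, 11.9 and 11.5 CPM in control and 11.3, 8.75 and 11.7 CPM in KO libraries. Every ileal library was above every colonic library, and the spread within control ileum was wide, with a coefficient of variation of 73.0% set mainly by replicate 1. The log2 fold change, colon minus ileum, was -2.94 (SE 0.50, edgeR adjusted p = 0.00107) in control and -2.54 (SE 0.49, edgeR adjusted p = 0.00251) in KO mice. Without control ileum replicate 1 the control value was -2.18, and the call remained. The ratio of mean levels, ileum over colon, was 7.71 in control and 5.83 in KO mice. Marker genes of other cell types also differed between the tissues. The 5 epithelium markers summed to between 15578 and 20273 CPM in ileum and between 7794 and 9024 CPM in colon, and all 5 were called lower in colon. The 5 leukocyte markers summed to between 43.5 and 61.7 CPM in ileum and between 13.1 and 25.6 CPM in colon, and 3 of the 4 tested were called lower in colon. The part of these cells in the differences of Nt5e and Entpd7 was not tested.

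Entpd7, which is known to cleave luminal ATP in the small intestine, was the other member lower in colon. It was at 29.5, 35.5 and 44.4 CPM in control ileum and at 53.7, 32.0 and 39.9 CPM in KO ileum. In colon it was at 9.01, 7.68 and 8.33 CPM in control and 7.63, 9.17 and 9.17 CPM in KO libraries. The tissues did not overlap, and the colonic libraries lay close together, with a coefficient of variation of 8.01% in control mice. The log2 fold change was -2.13 (SE 0.21, edgeR adjusted p = 2.30e-05) in control and -2.27 (SE 0.21, edgeR adjusted p = 1.51e-05) in KO mice. Exons of Entpd7 overlap those of Cox15 on the opposite strand, and the counting is not stated to use strand. Cox15, a gene of haem A synthesis named here because of this overlap, was at 28.3 to 48.1 CPM in ileum and 30.9 to 42.5 CPM in colon.

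Entpd5, a UDP-cleaving enzyme of the endoplasmic reticulum that serves the folding of glycoproteins, had the highest counts of the family. It was at 154, 148 and 234 CPM in control ileum and at 266, 194 and 219 CPM in KO ileum. The colonic values were 564, 539 and 625 CPM in control and 631, 657 and 544 CPM in KO libraries. Every colonic library exceeded every ileal library, with a log2 fold change of 1.69 (SE 0.20, edgeR adjusted p = 7.50e-05) in control and 1.43 (SE 0.19, edgeR adjusted p = 0.000235) in KO mice. Without KO ileum replicate 2, the library with colonocyte transcripts, the KO value was 1.33 and the call remained.

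Entpd6, an enzyme of the Golgi that prefers GDP, moved in the same direction by a smaller amount. Its ileal levels were 11.6, 20.2 and 23.7 CPM in control and 26.6, 16.6 and 18.8 CPM in KO libraries. Its colonic levels were 32.9, 33.0 and 29.4 CPM in control and 40.2, 34.6 and 33.4 CPM in KO libraries. The tissues did not overlap in either genotype. The log2 fold change was 0.78 (SE 0.24, edgeR adjusted p = 0.0335) in control mice and 0.81 (SE 0.24, edgeR adjusted p = 0.028) in KO mice. The call in KO mice was lost without KO ileum replicate 2 (log2 fold change 0.67, edgeR adjusted p = 0.1003) and without KO colon replicate 1 (0.70, edgeR adjusted p = 0.112).

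Entpd2, an ATP-preferring enzyme of the cell surface that enteric glia are known to carry, passed the threshold in control mice by a narrow margin. It was at 29.5, 29.7 and 22.5 CPM in control ileum and at 19.8, 17.5 and 24.1 CPM in control colon, so that the tissues overlapped through replicate 3 of each. The log2 fold change was -0.41 (SE 0.16, edgeR adjusted p = 0.0783), and the exact permutation p was 0.2 (two-sided). In KO mice it was at 33.0, 25.5 and 29.5 CPM in ileum and 22.1, 24.0 and 23.4 CPM in colon, without overlap. For 3 against 3 libraries this is an exact permutation p of 0.1 (two-sided), the smallest possible. The KO log2 fold change of -0.34 (adjusted p = 0.136, edgeR) did not pass. The KO value passed without control ileum replicate 3 (-0.35, adjusted p = 0.0942, edgeR) and with the 6 KO libraries alone (-0.34, adjusted p = 0.0913, edgeR). Without the 2 ileal libraries with few muscle transcripts, the control value was -0.55 (adjusted p = 0.0146, edgeR) and the KO value -0.24 (adjusted p = 0.238, edgeR). The control call held in 12 of 24 fits. It was lost with the replicate number as a block (adjusted p = 0.121, edgeR), with other scalings and, among others, without control ileum replicate 1 or 2, KO ileum replicate 3, control colon replicate 1 or 2 and KO colon replicate 1 or 2. Its exons overlap those of Npdc1 on the same strand. The 4 enteric glia markers summed to 0.5 to 5.4 CPM in ileum and 6.5 to 11.9 CPM in colon, and the part of glia in the Entpd2 level was not tested.

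**Figure D2:**
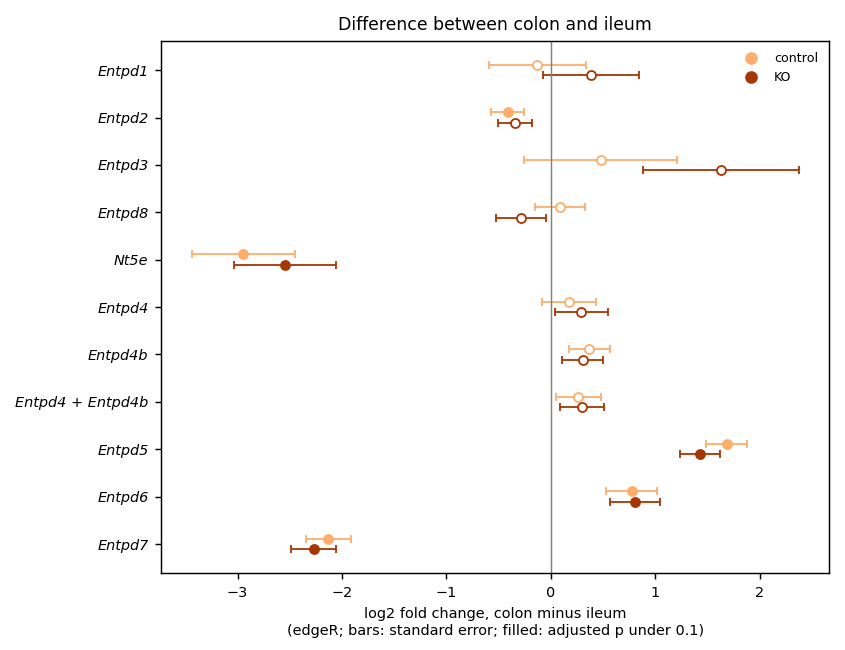
Log2 fold change, colon minus ileum, for each member in control and KO mice (edgeR); bars are standard errors and filled points passed an adjusted p under 0.1. Nt5e and Entpd7 lie left of 0 and Entpd5 and Entpd6 right of 0 in both genotypes, and Entpd2 is filled in control mice only, a difference between genotypes that was not past the threshold.

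Entpd8, Entpd1, Entpd3 and the pair of Entpd4 and Entpd4b did not pass the test between tissues with all 12 libraries and TMM factors in edgeR. Some other settings called them, in control mice Entpd4b in 4 of 24 fits (lowest edgeR adjusted p = 0.0642) and Entpd4 in 2 (lowest 0.0688), and in KO mice Entpd3 in 2 (lowest 0.0667), Entpd4b in 1 (0.0920) and Entpd8 in 1. The sum of Entpd4 and Entpd4b was called in 2 control fits (lowest edgeR adjusted p = 0.0527). Leaving out control ileum replicate 3 was enough for the control calls of Entpd4, Entpd4b and their sum and for the KO call of Entpd3. Entpd8, an apical surface enzyme, was at 155, 133 and 77.6 CPM in control ileum and 148, 104 and 136 CPM in control colon, with a log2 fold change of 0.09 (SE 0.24). In KO mice it was at 99.2, 139 and 147 CPM in ileum and 95.9, 102 and 119 CPM in colon, with a log2 fold change of -0.28 (SE 0.24). The lowest ileal values of each genotype were those of the 2 libraries with few muscle transcripts. Without both libraries the value was -0.17 in control mice, which turned its direction, and -0.43 in KO mice (adjusted p = 0.0641, edgeR), which then passed.

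Entpd1, known as CD39 and carried by blood vessels and leukocytes, was at 6.59, 8.05 and 2.34 CPM in control ileum and 2.74, 6.02 and 7.06 CPM in KO ileum. In colon it was at 3.74, 6.81 and 4.90 CPM in control and 6.08, 5.39 and 9.21 CPM in KO libraries. The 2 low ileal values were again those of control replicate 3 and KO replicate 1. In these libraries the 4 fibroblast markers summed to 34.0 and 32.3 CPM against 243 to 484 CPM in the other ileal libraries, while the 4 endothelial markers, at 15.8 and 11.0 CPM, lay within or above the 5.1 to 12.4 CPM of the others. The 5 leukocyte markers summed to 46.95 and 49.96 CPM there, within the 43.5 to 61.7 CPM of the other ileal libraries. The part of these cells in the Entpd1 level was not tested. The log2 fold change between tissues was -0.13 (SE 0.46) in control and 0.38 (SE 0.46) in KO mice. Without both libraries the Entpd1 values were -0.53 (adjusted p = 0.182, edgeR) and 0.09 (adjusted p = 0.831, edgeR).

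Entpd3, an enzyme known from neurons, was measured with few reads, from 1 to 41 expected counts per library. Its level was 0.73, 0.83 and 0.25 CPM in control ileum and 0.06, 0.39 and 0.57 CPM in KO ileum. The colonic values were 0.26, 1.10 and 1.13 CPM in control and 0.94, 0.62 and 1.70 CPM in KO libraries. In KO mice the tissues did not overlap, with a log2 fold change of 1.63 (SE 0.75, edgeR adjusted p = 0.124), and in control mice they did (0.48, SE 0.73). For 3 against 3 libraries no overlap is an exact permutation p of 0.1 (two-sided), the smallest possible. The 5 enteric neuron markers summed to 1.9 and 2.0 CPM in the 2 ileal libraries with few muscle transcripts, 10.9 to 17.9 CPM in the other ileal libraries and 19.4 to 49.4 CPM in colon. The part of neurons in the Entpd3 level was not tested, and without the 2 libraries the KO value was 1.20 (adjusted p = 0.165, edgeR).

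**Figure D3:**
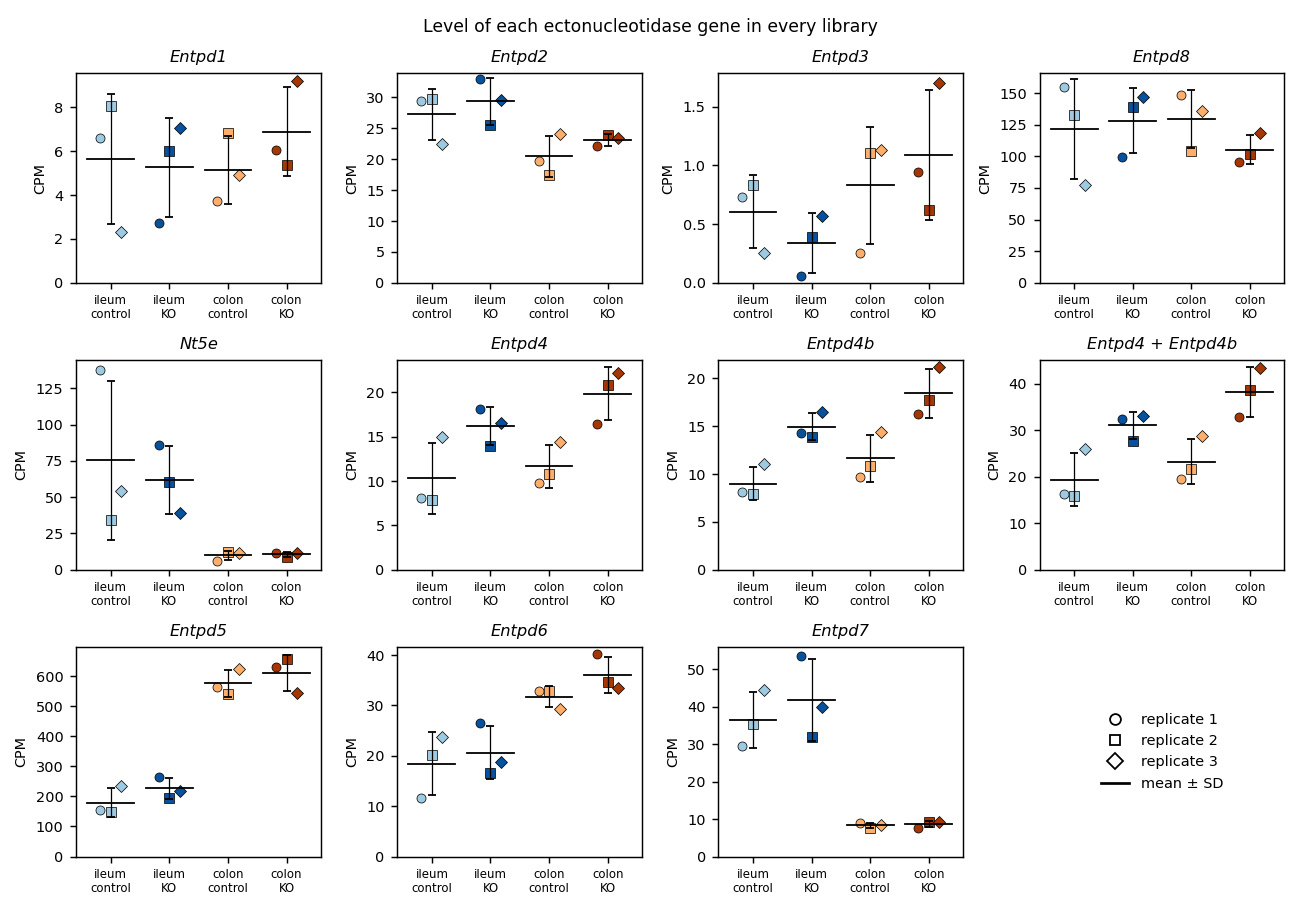
CPM of each member in every library, on linear axes that start at 0; symbols mark the replicate number, horizontal lines the mean and vertical bars the SD of 3 libraries. Entpd5 and Entpd6 are higher and Entpd7 and Nt5e lower in colon, and Entpd4 and Entpd4b are higher in KO libraries of both tissues except for the overlap of Entpd4 in ileum.

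Between genotypes, no member passed the threshold in edgeR. Over both tissues, 0 of the 10 members were called beside 0.0% of all genes, 2 members had an unadjusted p under 0.05 beside 3.87% of all genes, and both were Entpd4 and Entpd4b. DESeq2, the tool the study used, called 1 member, Entpd4b, beside 0.0143% of the 27963 genes to which it gave an adjusted p, and limma-voom called none. The study named Entpd4b on these same samples, so its DESeq2 call is not independent evidence. In ileum and in colon 0 members were called beside 0.0% of genes in each, and 2 had an unadjusted p under 0.05 in each, again Entpd4 and Entpd4b, beside 1.52% of genes in ileum and 2.33% in colon. When the genotype effects of the 2 tissues were compared, 0 members were called beside 0.0% of genes, and 0 had an unadjusted p under 0.05 beside 1.02% of genes. DESeq2 and limma-voom called no member within either tissue or for this difference. Entpd4 and Entpd4b share all their transcript windows, so the counts of 2 members above stand for 1 signal.

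Entpd4 and Entpd4b encode a UDP-cleaving enzyme of the Golgi and lysosomal vesicles. Entpd4 (ENSMUSG00000095463.8) lies at chr14:69337174-69367270 and Entpd4b (ENSMUSG00000022066.16) at chr14:69555424-69585520, both on the plus strand, both 30097 bases long, with starts 218250 bases apart. Since all their transcript windows are shared, reads could not be divided between them by sequence at this length. The 2 rows held equal expected counts in 7 of 12 libraries, within 0.01. Of the other libraries, the share given to Entpd4b was 42.4% in control ileum replicate 3, 44.0% in KO ileum replicate 1 and between 46.0% and 49.7% in KO colon. Their sum is therefore the firmer measure.

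The sum of Entpd4 and Entpd4b was at 16.3, 15.8 and 26.0 CPM in control ileum and 32.4, 27.8 and 33.1 CPM in KO ileum. In colon it was at 19.4, 21.6 and 28.8 CPM in control and 32.8, 38.6 and 43.4 CPM in KO libraries. Every KO library lay above every control library of its tissue, a pattern held by 39 of 16558 genes tested (0.236%). With genotypes exchanged at random within tissues, 1 of the 400 arrangements gives this pattern. The share over all genes was thus close to that of random labels. Control replicate 3 was the highest control in both tissues. The log2 fold change was 0.70 over both tissues (SE 0.14), 0.68 in ileum (SE 0.21) and 0.72 in colon (SE 0.21). Over both tissues edgeR gave an adjusted p = 0.998 and DESeq2 an adjusted p = 0.121. The exact permutation p was 0.005 (two-sided), which is the smallest that the 400 arrangements within tissues can give, and within 1 tissue 3 against 3 libraries cannot go below 0.1. The labels do not say whether the ileal and colonic libraries came from the same mice. If they did, the arrangements over both tissues would not be independent, nor would the libraries in the fits over both tissues. Since the study named Entpd4b on these same samples, the permutation p and the lack of overlap are not independent evidence either. The permutation p was not corrected for the number of members.

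The separate rows gave 0.71 for Entpd4 (SE 0.18) and 0.69 for Entpd4b (SE 0.13) over both tissues. Entpd4 was at 8.12, 7.89 and 15.0 CPM in control ileum and 18.2, 13.9 and 16.5 CPM in KO ileum, which overlapped. Entpd4b was at 8.12, 7.89 and 11.01 CPM in control ileum and 14.3, 13.9 and 16.5 CPM in KO ileum, which did not. In colon neither gene overlapped, with Entpd4 at 9.73, 10.8 and 14.4 CPM in control and 16.5, 20.8 and 22.2 CPM in KO libraries. Entpd4b in colon was at the same control values and at 16.3, 17.8 and 21.2 CPM in KO libraries. The separation of the ileal groups thus rested on how the counts of control replicate 3 were divided for the single genes, and was present in the sum. Without the 2 ileal libraries with few muscle transcripts, the sum passed in edgeR (log2 fold change 0.80, adjusted p = 0.0923), as did Entpd4 (0.83, adjusted p = 0.0993), and Entpd4b did not (0.77, adjusted p = 0.158).

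Gm16867, a gene on the opposite strand whose exons overlap those of Entpd4, was chosen after its values were seen. Its level was 0, 0 and 17.7 CPM in control ileum and 42.1, 38.2 and 29.8 CPM in KO ileum, and in colon 0, 0 and 4.19 CPM in control and 3.30, 13.8 and 6.23 CPM in KO libraries. Control replicates 1 and 2 were thus at 0 in both tissues, while control replicate 3 was not, and in colon it lay within the range of the KO libraries. Of the windows of 75 bases in Gm16867 transcripts, 25.0% also occurred in Entpd4 in 1 orientation or the other. Gm38378 and its copy Gm37513, also chosen after their values were seen, lie in the same duplicated stretch of chromosome 14 and were at 0, 0 and 0.892 CPM each in control ileum and 0.947 to 1.09 CPM in KO ileum. Without strand, reads from the stretch where their exons overlap cannot be assigned to Entpd4 or to Gm16867, and the part of this neighbourhood in the Entpd4 and Entpd4b difference was not tested.

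**Figure D4:**
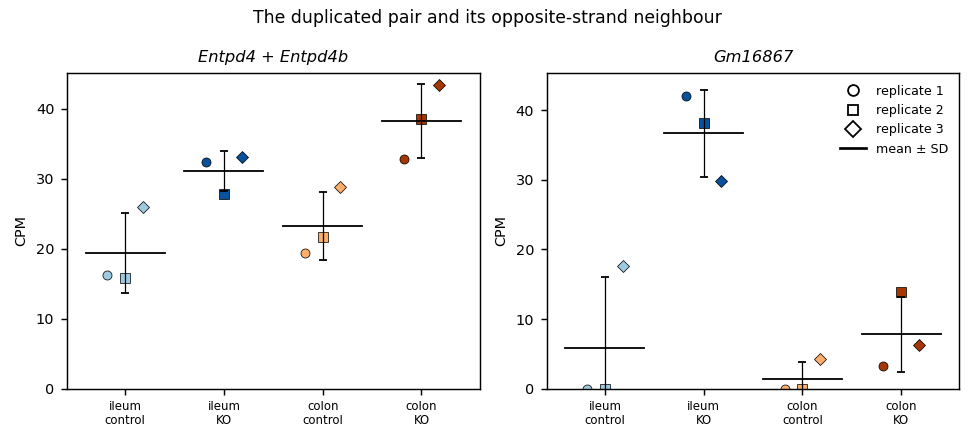
CPM of the sum of Entpd4 and Entpd4b and of Gm16867 in every library, on linear axes; symbols mark the replicate number, horizontal lines the mean and vertical bars the SD of 3 libraries. For the sum every KO library lies above the controls of its tissue, and for Gm16867 control replicates 1 and 2 are at 0 while control replicate 3 is at 17.7 CPM in ileum and 4.19 CPM in colon.

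The 8 members outside this pair had log2 fold changes between -0.12 and 0.21 over both tissues, none with an unadjusted p under 0.05. Among the surface enzymes they were 0.17 for Entpd1 (SE 0.32), 0.14 for Entpd2 (0.11), -0.12 for Entpd3 (0.52) and -0.11 for Entpd8 (0.17). Nt5e had -0.09 (SE 0.32). Among the intracellular enzymes they were 0.21 for Entpd5 (SE 0.13), 0.17 for Entpd6 (0.16) and 0.13 for Entpd7 (0.14). The standard errors of Entpd1, Entpd3, Entpd7, Entpd8 and Nt5e were larger than their values, and no direction is read from any of the 8. Entpd6 in colon did not overlap between genotypes, with 29.4 to 33.0 CPM in control and 33.4 to 40.2 CPM in KO libraries, and its log2 fold change there was 0.18 (SE 0.24). The median over all 10 members was 0.16, beside 0.00 for all genes.

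**Figure D5:**
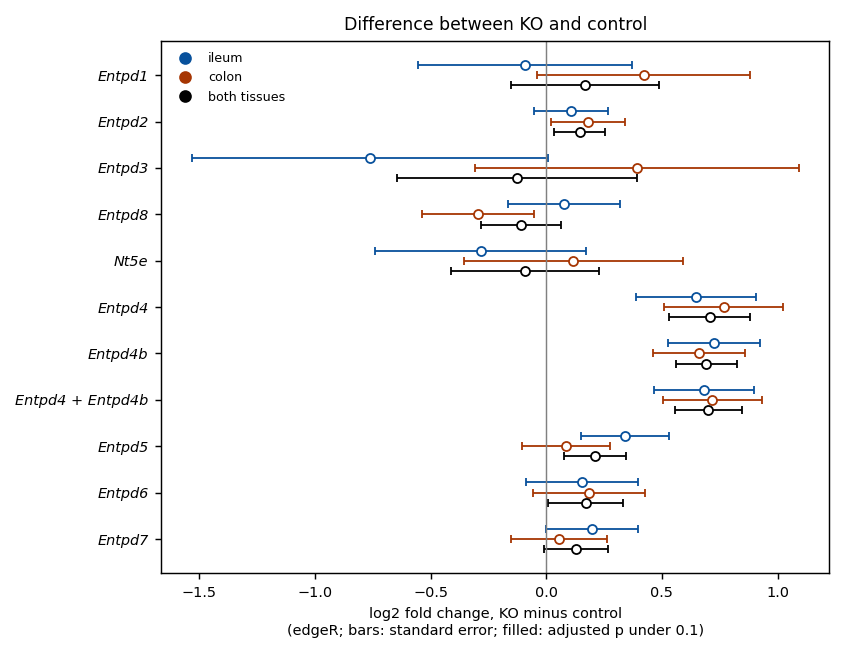
Log2 fold change, KO minus control, for each member in ileum, in colon and over both tissues (edgeR); bars are standard errors, and no point is filled because none passed an adjusted p under 0.1. Entpd4, Entpd4b and their sum lie between 0.65 and 0.77 in each comparison, and the other members scatter around 0.

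Of 52 other genes of nucleotide signalling and nucleotide-sugar handling, in 8 lists, 47 were tested. None was called between genotypes in edgeR over both tissues, beside 0.0% of all genes. An unadjusted p under 0.05 was held by 3, namely Cant1, P2rx4 and Slc35c1, beside 3.87% of all genes. Between tissues, 10 were higher and 17 lower in control colon, and 9 were higher and 16 lower in KO colon. Beside these counts, 16.2% of all genes were higher and 19.6% lower in control colon, and 17.1% were higher and 20% lower in KO colon. The counts per list below are read beside the same shares.

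Among 8 tested enzymes that also cleave nucleotides outside the Entpd family, 2 were higher and 3 lower in colon of both genotypes. Enpp4 was at 7.34 ± 0.475 CPM in control ileum and 21.5 ± 0.324 CPM in control colon (SD, n = 3), and Enpp1, which makes pyrophosphate from ATP, at 7.65 ± 0.805 and 12.3 ± 1.29 CPM. Alpi, the intestinal alkaline phosphatase, fell from 429 ± 74.7 CPM in ileum to 35.0 ± 12.4 CPM in colon, and Enpp3 from 8.43 ± 3.29 to 0.993 ± 0.211 CPM. Alpi was thus lower in colon, as Nt5e was.

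Of the genes that remove adenosine or carry it across membranes, those that were called were all lower in colon. Ada, adenosine deaminase, was at 628 ± 460 CPM in control ileum and 4.23 ± 0.574 CPM in control colon, and Pnp, purine nucleoside phosphorylase, at 257 ± 85.0 and 47.9 ± 7.05 CPM. The concentrative nucleoside transporters Slc28a2, at 393 ± 209 and 5.64 ± 0.971 CPM, and Slc28a3, at 14.9 ± 3.21 and 0.198 ± 0.155 CPM, were lower in colon as well. In each of these lists 2 genes were lower and 0 higher, of 3 adenosine-handling enzymes and 6 nucleoside transporters tested, in both genotypes.

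Of 7 tested P2Y receptors, 2 were lower in colon, P2ry2 (log2 fold change -1.33, SE 0.22) and P2ry4 (-2.38, SE 0.46) in control mice. Of 5 tested P2X receptors, P2rx4 (0.71, SE 0.10) and P2rx2 (2.79, SE 0.85) were higher and P2rx1 (-1.45, SE 0.40) was lower. P2rx2 was at 0.311 ± 0.300 CPM in control ileum and 2.04 ± 0.717 CPM in control colon, and P2rx1 at 1.79 ± 0.336 and 0.653 ± 0.170 CPM. The adenosine receptor Adora2b was higher in control colon (2.97, SE 0.70) and Adora2a lower (-1.22, SE 0.45), and in KO mice Adora2b alone was called. Adora2b was at 0.467 CPM in control ileum and 3.73 CPM in control colon, and Adora2a at 1.26 and 0.537 CPM. The fold changes of P2rx2, P2rx1, Adora2b and Adora2a thus rest on low levels. Slc17a9, the vesicular nucleotide transporter, was at 5.96 ± 0.711 CPM in control ileum and 58.3 ± 5.52 CPM in control colon, while the ATP channel Panx1 was at 73.8 ± 24.0 and 38.9 ± 11.99 CPM.

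In the nucleotide-sugar cycle of the endoplasmic reticulum and Golgi, the setting of Entpd5 and Entpd6, 4 of 13 genes were higher and 5 lower in control colon, and 3 were higher and 5 lower in KO colon. The CMP-sialic acid transporter Slc35a1 was at 24.5 ± 2.12 CPM in ileum and 106 ± 9.41 CPM in colon of control mice, and Slc35d1 at 63.1 ± 14.6 and 322 ± 17.4 CPM. Slc35b1 fell from 161 ± 23.2 to 38.3 ± 5.18 CPM and the chaperone Canx from 592 ± 57.7 to 263 ± 3.24 CPM. The list thus held genes that moved with Entpd5 and genes that moved against it.

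The genes with the pattern most like Entpd5, Entpd7 and Nt5e, the members called between tissues in control mice with a log2 fold change beyond 1, were found by the root-mean-square difference of centred log2 CPM over the 12 libraries. They were Tmem44 (0.150), Abcb6 (0.159) and Sdr42e1 (0.162) for Entpd5. For Entpd7 they were Slc3a2 (0.123), 4930442L01Rik (0.159) and Tcn2 (0.159). For Nt5e they were Eepd1 (0.279), G6pc (0.382) and Agmo (0.409), a looser match than for the other members. Each of these genes had mean levels that differed between the tissues in the direction of its member. In colon 4930442L01Rik was at 0.0 CPM, and the G6pc level was 0.0 CPM in control mice and 0.0553 CPM in KO mice, so that the colonic log2 values of both were set by the added 0.5 and their measure of likeness rests on that constant.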

How the data were processed

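RNA-seq libraries of the mucosa of ileum and colon, 12 in all, were analysed, grouped by the labels into tissue and genotype with 3 mice each. The authors deposited 1 table of expected counts, estimated and not normalized counts of reads per gene that can be fractions. The labels name STAR and the build mm10, and how reads were divided among similar genes is not known from them. The table holds 53807 lines, of which 92 are spike-in lines with a total of 0, and these were left out. All columns belonged to a library. Symbols came from GENCODE M21, without regard to identifier version, for 53620 of 53715 genes.

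Expected counts were rounded and tested with edgeR 4.0.16 in R 4.3.3 (filterByExpr, TMM, glmQLFit, glmQLFTest), with Benjamini-Hochberg adjustment over 16558 genes and a threshold of 0.1. Genotype over both tissues had tissue as a term, and all other comparisons came from a model of the 4 groups. Standard errors are the log2 fold change divided by the root of the F statistic. Exact permutation tests used log2 of CPM plus 0.5. Depth was 16749138 to 27903083 expected counts, so members such as Entpd3 are limited by counting error. Alternatives were DESeq2 1.42.0, limma-voom (limma 3.58.1), other scalings and filters, no rounding, a replicate block, fewer libraries and the sum of Entpd4 and Entpd4b. The steps were tested on simulated data. Figures used matplotlib 3.10.9.

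The members and the gene lists were chosen with earlier results of these data known. All members are named. Of other pathway genes, the text names those past the threshold between genotypes, had there been at most 10, and the 2 with the smallest p in each direction per list between tissues. Genes outside this rule are marked as chosen after their values were seen or named for an overlap, and the 3 pathway genes with an unadjusted p under 0.05 between genotypes were also named after their values were seen. The exons of 6 members overlap those of another gene. They are Entpd2 with Npdc1 on the same strand, and on the opposite strand Entpd4 with Gm16867, Entpd4b with Gm27177, Entpd6 with Gm26681, Entpd7 with Cox15 and Entpd8 with Noxa1.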

Additional observations from a re-analysis of the deposited data

How the results depend on the processing

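The tissue differences of Entpd5, Entpd7 and Nt5e passed the threshold in all 24 fits in both genotypes, and that of Entpd6 in 24 of 24 in control and 22 of 24 in KO mice. The number of members called stayed between 4 and 7 in control and between 3 and 6 in KO mice. Of genes called over both tissues between genotypes, edgeR gave 0, DESeq2 gave 4, limma-voom gave 1 and the fit without the 2 ileal libraries with few muscle transcripts gave 5, and of members these gave 0, 1, 0 and 1. In ileum DESeq2 called 2 genes, limma-voom 1 and the fit without the 2 libraries 3, in colon the 6 libraries alone gave 1 gene, and for the difference between tissues DESeq2 gave 1. Leaving out each library gave 0 to 1 genes over both tissues and in ileum.

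Values near 0 changed direction. Over both tissues between genotypes, Entpd3 was 0.034 with limma-voom and 0.0062 without the 2 libraries, with -0.43 to 0.11 when libraries were left out one at a time, and Nt5e was 0.0096 with library size only and -0.24 to 0.29 when libraries were left out. Colon minus ileum in control mice, Entpd1 was 0.10 with limma-voom and 0.16 with library size only (-0.53 to 0.22 when libraries were left out), Entpd8 was -0.17 without the 2 libraries (-0.17 to 0.30), and Entpd4 was -0.037 to 0.53 when libraries were left out. In KO mice Entpd8 was 0.0046 with library size only. The difference of the genotype effect for the sum of Entpd4 and Entpd4b was -0.18 without the 2 libraries and -0.23 to 0.24 when libraries were left out. The cause was not tested.

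The median log2 fold change of all genes, colon minus ileum, was 0.02 in control and 0.01 in KO mice with TMM. It was 0.24 and 0.29 with library size only, and 0.12 and 0.14 with upper-quartile factors. The share of calls that were higher in control colon was 45.3% with TMM, 55.2% with upper-quartile factors and 66.4% with library size only, and in KO mice 46.1%, 58.3% and 70.9%. With the replicate block, 5 members were called in control and 4 in KO mice, and 0 between genotypes, with an adjusted p of 0.413 for the sum of Entpd4 and Entpd4b in edgeR. In control mice the block ended the call of Entpd2 (adjusted p = 0.121) and gave one to Entpd4b (adjusted p = 0.0959). Same-numbered libraries deviated together with correlations of -0.0628 to 0.175 between control tissues, 0.0772 to 0.298 between KO tissues, -0.731 to 0.384 between ileal genotypes and -0.102 to 0.117 between colonic genotypes, and since not every pair passed 0.1 the numbers were not taken to pair samples. As a hint from the data, not the design, 3 of 3 KO ileal libraries correlated best with the colonic library of their own number, against 1 of 3 in control mice, 0 of 3 between ileal and 1 of 3 between colonic genotypes. Depth limits Entpd3.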
